A study of Rattus norvegicus with 9 samples.

Results

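Circadian clock genes were followed in the posterior cricoarytenoid, the laryngeal muscle that opens the vocal folds, of ageing rats. They were chosen by gene symbol from a list of 9 names, in which *Arntl* and *Bmal1* are the same gene. The symbols matched 11 of 8740 probe sets, for 8 of the 4736 genes that the array annotation names singly: *Bmal1*, *Dbp* and *Nr1d1* with 2 probe sets each, and *Per2*, *Tef*, *Nr1d2*, *Bhlhe40* and *Bhlhe41* with 1 each. The rats were 6, 18 or 30 months old, with 3 arrays (Affymetrix Rat Genome U34) per age. The RNA of 4 animals was pooled for every array, so a replicate is a pool. The p-values of the age comparisons below set differences between ages against the spread between pools. The 3 ages differ only by age as far as the labels go, and 6 months is the baseline. The sources used here give no strain, sex or hour of tissue collection. The values are signals of the authors' Microarray Suite software, on a linear scale. Signals of different probe sets are not comparable as levels, so each gene is compared with itself across arrays.

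The mammalian clock is a feedback loop of transcription factors that runs in nearly all tissues, skeletal muscle included. BMAL1 and its partner CLOCK switch on the genes of their own inhibitors, the PER and CRY proteins, together with *Nr1d1*, *Nr1d2*, *Bhlhe40*, *Bhlhe41* and *Dbp*, whose promoters or introns carry E-boxes. The nuclear receptors made from *Nr1d1* and *Nr1d2* (REV-ERB-α and REV-ERB-β) in turn repress *Bmal1* through ROR response elements, and DBP and TEF, bZIP factors of the PAR family, activate genes with D-boxes, *Per2* among them. In rodent tissues *Bmal1* RNA therefore peaks roughly opposite to *Dbp*, *Nr1d1* and *Per2*, and the hour at which a tissue is taken sets where each gene stands in its cycle. The question for these arrays is whether the 8 genes shift with age, and whether their joint pattern over the pools has the opposed form of such a cycle.

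The start regions of 4 of the genes are shown because they are the genes whose signals varied together or opposite each other, as described below. Each runs from 250 bases before to 50 bases after the gene's start in RefSeq's rat assembly GRCr8, written 5′ to 3′ on the gene's strand, with motif matches in capitals. The motifs searched, on both strands, were the E-box CACGTG, the related E-prime box CACGTT, the D-box TTANGTAA and AGTAGGTNA, the core of the ROR response element as it stands in *Bmal1*, whose letters were picked after that sequence was seen. Among 33469 such windows of the assembly, 6.42% hold the first, 4.83% the second, 2.24% the third and 0.604% the last. No match overlapped another in the member genes.
Bmal1, chr1:176766078-176766377, plus strand: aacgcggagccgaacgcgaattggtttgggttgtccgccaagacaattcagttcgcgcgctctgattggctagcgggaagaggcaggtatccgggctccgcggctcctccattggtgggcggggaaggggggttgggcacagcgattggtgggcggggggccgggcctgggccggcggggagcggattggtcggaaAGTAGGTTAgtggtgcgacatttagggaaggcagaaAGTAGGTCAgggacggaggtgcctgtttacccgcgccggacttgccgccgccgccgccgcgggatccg
Per2, chr9:99496944-99497243, minus strand: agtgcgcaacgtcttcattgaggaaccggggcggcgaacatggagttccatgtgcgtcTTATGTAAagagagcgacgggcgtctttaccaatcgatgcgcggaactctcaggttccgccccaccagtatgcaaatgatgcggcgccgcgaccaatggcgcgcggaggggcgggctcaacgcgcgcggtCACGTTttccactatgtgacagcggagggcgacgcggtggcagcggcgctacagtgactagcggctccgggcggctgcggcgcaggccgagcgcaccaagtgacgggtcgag
Bhlhe41, chr4:180569306-180569605, minus strand: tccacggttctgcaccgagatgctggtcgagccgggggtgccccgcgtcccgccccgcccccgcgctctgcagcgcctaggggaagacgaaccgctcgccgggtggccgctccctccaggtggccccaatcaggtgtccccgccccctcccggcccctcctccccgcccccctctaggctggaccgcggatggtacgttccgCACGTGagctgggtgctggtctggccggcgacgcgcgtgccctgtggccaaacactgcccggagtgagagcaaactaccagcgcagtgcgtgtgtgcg
Dbp, chr1:105312006-105312305, plus strand: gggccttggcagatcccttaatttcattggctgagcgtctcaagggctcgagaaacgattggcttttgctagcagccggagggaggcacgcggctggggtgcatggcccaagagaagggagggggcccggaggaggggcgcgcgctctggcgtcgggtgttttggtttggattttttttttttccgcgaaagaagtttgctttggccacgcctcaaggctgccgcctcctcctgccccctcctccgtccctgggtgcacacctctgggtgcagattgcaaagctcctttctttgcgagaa

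The *Bmal1* window holds the ROR element core at -54 and again at -18 from the start. The *Per2* window holds the D-box at -192 and the E-prime box at -62, and the *Bhlhe41* window holds the E-box at -48. The *Dbp* window holds none of the 4, which says only that these letters are not in these 300 bases. Among the other members, the E-box stands in the windows of *Tef* at -198, of *Bhlhe40* at -220 and of 1 of the 2 *Nr1d1* starts at -191, and the other *Nr1d1* start has the E-prime box at -174. The *Nr1d2* window has no match. All 8 genes had a window, 9 windows in all, and 7 windows held at least 1 motif. These matches are descriptions of the letters and show no binding.

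Some arrays stood apart in measures other than the clock genes. Median signal was 104 to 116 on the 6 older arrays against 120 to 125 on the 6-month arrays, without overlap. *Tg*, which encodes thyroglobulin of the thyroid gland, read 628.2 on replicate 3 of 18 months and 555.2 on replicate 3 of 30 months, against 30.2 to 108.6 on the other 7. The summed signal of the epithelial and gland markers, *Tg* among them, was 924.1 and 818.3 on those arrays, against 260.8 to 451 elsewhere. The other tested genes of that list were not raised there. *Krt14* read 82.4 and 86.6 and *Pth* 54.7 and 64.2, each within the range of the other 7 arrays. The part of either difference in the clock values was not tested. Without both *Tg*-high arrays, a setting chosen after seeing the data, 0 clock probe sets passed in limma, and the log2 changes of *Per2* were 0.58 at 18 and 0.93 at 30 months against 6 months (adjusted p = 0.640 and 0.298). Those of the brighter *Bmal1* probe set were then -0.15 and -0.60 and those of the brighter *Dbp* probe set 0.61 and 1.01, to be set against the values over all arrays below.

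*Bmal1*, the activator of the loop, had signals of 326, 411.3 and 287 in 6-month pools, 217.6, 411.8 and 186 in 18-month pools, and 213.9, 210.1 and 350.8 in 30-month pools. The older arrays split: replicate 2 of 18 months lay at the top of the 6-month range and replicate 3 of 30 months within it, and the other 4 lay below all 6-month arrays. The means were 341 ± 63.6 at 6, 272 ± 122 at 18 and 258 ± 80.2 at 30 months (SD, n = 3 pools each). The log2 change was -0.36 at 18 months (SE 0.28, adjusted p = 0.734) and -0.38 at 30 months (SE 0.28, adjusted p = 0.564), both against 6 months. The first was -0.67 with replicate 2 of 18 months left out and -0.15 with replicate 3 left out, and the second was -0.60 without replicate 3 of 30 months. Without replicate 2 of 6 months they were -0.23 and -0.25. Here and below, changes are on the log2(signal + 32) scale and p-values come from a limma fit over all 9 arrays, adjusted over 5244 probe sets.
The other *Bmal1* probe set read 119.8, 183.4 and 140.3 in 6-month pools, 108, 204.7 and 18.2 in 18-month pools, and 94.4, 125.2 and 135.3 in 30-month pools. Its value of 18.2 stands apart from the other 8 arrays. With that array the log2 change at 18 months was -0.59, and without it 0.03, so its direction at 18 months rests on 1 pool.

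*Per2*, a repressor of BMAL1 and CLOCK, came nearest to a shift with age. Its signals were 101.1, 76.7 and 100.2 in 6-month pools, 212.5, 107.9 and 210.7 in 18-month pools, and 171.9, 242 and 145.8 in 30-month pools. All 6 older arrays lay above all 3 arrays of 6 months, replicate 2 of 18 months (107.9) by the smallest margin. The 6-month signals of *Per2* were weak, below the median signal of their own arrays (120 to 125), and no detection calls were used. The means were 92.7 ± 13.8 at 6, 177 ± 59.9 at 18 and 187 ± 49.7 at 30 months (SD, n = 3 pools each), or ratios of 1.91 and 2.01 to 6 months. The log2 change of *Per2* was 0.71 at 18 months (SE 0.24, unadjusted p = 0.0142, adjusted p = 0.477). At 30 months it was 0.79 (SE 0.24, unadjusted p = 0.00773, adjusted p = 0.280). Neither passed the threshold of 0.05, and *Per2* ranked 156th and 142nd of 5244 probe sets by p in these limma comparisons. Age accounted for 62.3% of its variation over the arrays, the highest share among the member probe sets, against a median of 26.1% over all tested probe sets.

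*Dbp*, the output factor with one of the strongest daily rhythms in rodent tissues, had the widest spread between pools of the brightest probe sets of the 8 genes. Its brighter probe set read 408.9, 348 and 587.8 in 6-month pools, 1110.7, 418.8 and 686.8 in 18-month pools, and 759, 1100.7 and 357.9 in 30-month pools. Replicate 2 of 18 months and replicate 3 of 30 months were within the 6-month range, and the other 4 older arrays were above it. The highest array was 2.65 times the lowest within 18 months and 3.08 times within 30 months, whereas the ratio of mean signals was 1.65 at 18 and 1.65 at 30 months against 6 months. Its log2 change was 0.61 at 18 months (SE 0.42, adjusted p = 0.683) and 0.58 at 30 months (SE 0.42, adjusted p = 0.564) in limma. The first was 0.28 with replicate 1 of 18 months left out and 0.95 with replicate 2 left out. The second was 0.24 with replicate 2 of 30 months left out and 1.01 with replicate 3 left out.
The other *Dbp* probe set, named for the same sequence record, read 331.9, 198.3 and 379.6 at 18 months against 127.4, 171.8 and 183.4 at 6 months, without overlap. At 30 months it read 299.2, 474.4 and 171.4, with replicate 3 inside the 6-month range. Its log2 changes were 0.77 (adjusted p = 0.576) and 0.76 (adjusted p = 0.365) at 18 and 30 months.

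**Figure D1:**
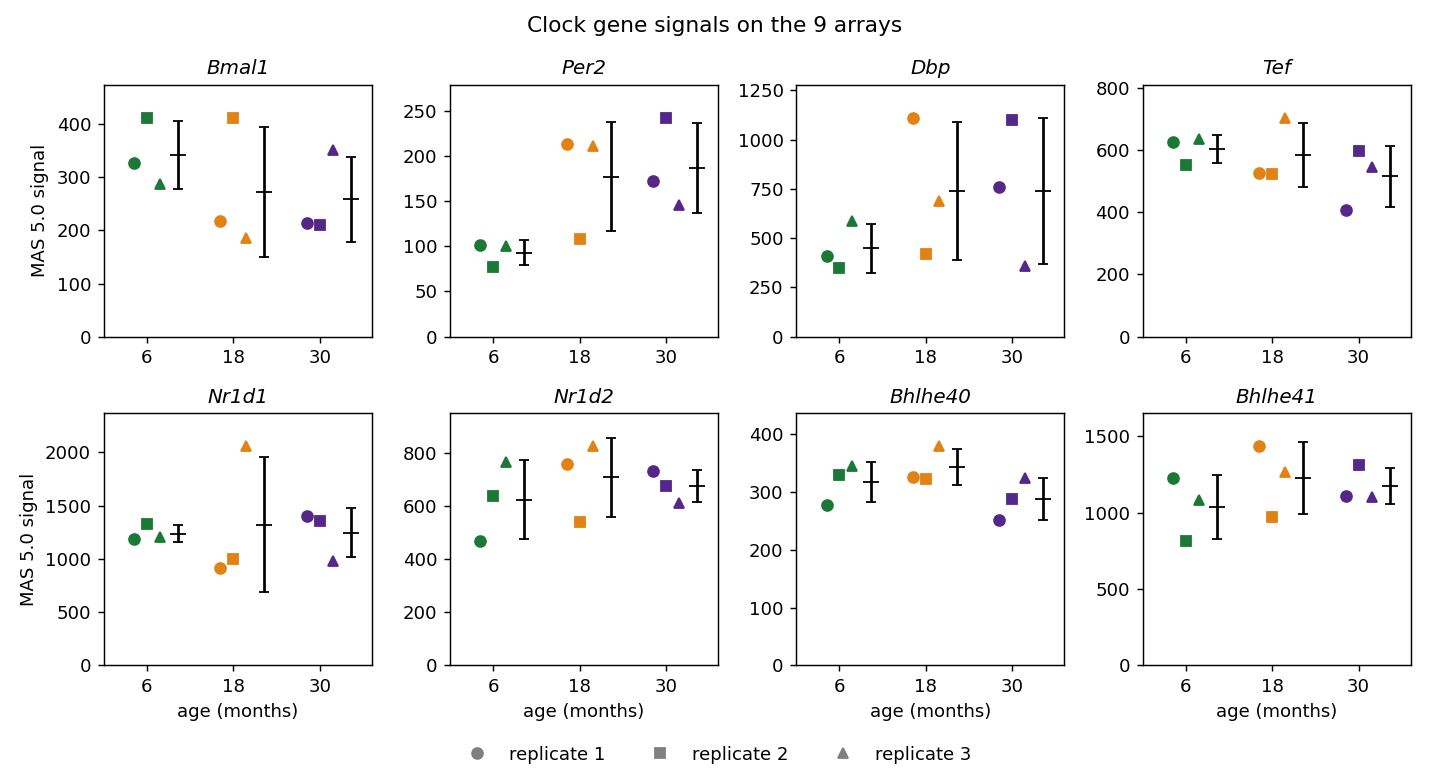
MAS 5.0 signal (linear, axis from 0) of the 8 clock genes at 6, 18 and 30 months, shown for the brightest probe set of a gene; points are arrays, with a marker for each replicate number, and the bars give mean and SD of 3 pools. Per2 at 6 months lies at 76.7 to 101.1, under all older arrays, while 4 older arrays lie below the 6-month range in Bmal1 and 4 above it in Dbp.

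Neither REV-ERB gene passed the test for age. *Nr1d1* read 1183, 1329.4 and 1202.4 in 6-month pools, 914.9, 994.4 and 2058.1 in 18-month pools, and 1406, 1351.9 and 983.6 in 30-month pools. Replicate 3 of 18 months was the highest array and replicate 1 of 18 months the lowest, so 1 age held both ends of the range. The log2 changes of *Nr1d1* were -0.0025 at 18 months and -0.0049 at 30 months (SE 0.27 each), and their signs turned after quantile normalization. Its other probe set, from the same sequence record, also had its highest array in replicate 3 of 18 months, at 1368.7, with 619.8 to 1064.6 on the rest. *Nr1d2* read 469.3, 636.3 and 765.9 in 6-month pools, 758.9, 538.9 and 824.1 in 18-month pools, and 732.5, 676.1 and 611.6 in 30-month pools. The ages overlapped throughout, with log2 changes of 0.18 and 0.13 (SE 0.20 each).

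*Tef*, the close relative of *Dbp*, and the E-box repressors *Bhlhe40* and *Bhlhe41* had narrower ranges. *Tef* read 624, 552.2 and 634 in 6-month pools, 526.3, 521.1 and 703 in 18-month pools, and 406.7, 595 and 545 in 30-month pools. Its highest array was 1.73 times its lowest over all 9, against 3.19 times for *Dbp*. *Bhlhe40* had the smallest spread within an age of the 11 probe sets, with signals of 278.3, 330.5 and 344.7 in 6-month pools, 326.3, 323.7 and 379.5 in 18-month pools, and 251.9, 288.7 and 324.1 in 30-month pools.
*Bhlhe41* read 1222.7, 810.2 and 1082.8 in 6-month pools, 1433.4, 970.8 and 1268.4 in 18-month pools, and 1106.4, 1310.6 and 1099.9 in 30-month pools. In all 3 genes the ages overlapped. The log2 changes at 18 and 30 months were -0.06 and -0.23 for *Tef* (SE 0.17), 0.10 and -0.13 for *Bhlhe40* (SE 0.13), and 0.23 and 0.18 for *Bhlhe41* (SE 0.19).

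Over the 11 member probe sets, 0 passed an adjusted p of 0.05 in any limma comparison, where few probe sets passed at all. The share passing over all 5244 tested probe sets was 0.0763% at 18 against 6 months, 0.324% at 30 against 6 months, 0.0191% at 30 against 18 months and 0.267% in the F-test for any age. At an unadjusted p under 0.05 the members counted 2 at 18 and 2 at 30 months against 6 months, *Per2* and the weaker *Dbp* probe set both times, all higher, and 0 at 30 against 18 months. The same rule took 8.62%, 12.9% and 3.20% of all tested probe sets. Values did not overlap between ages in 2 of 11 members at 18 against 6 months, in 1 at 30 against 6 months and in 0 at 30 against 18 months. Over all tested probe sets that held for 13.7%, 22.2% and 7.36%, against 18.2% and 9.09% of the members in the comparisons with 6 months, so the members stood near the background or under it. The median log2 change of the member probe sets was 0.10 at 18 months, against -0.04 over all tested probe sets, and -0.0049 at 30 months, against -0.05. A p that misses the threshold does not show that the ages were equal. In muscle RNA, fewer cells of a type and less RNA per cell cannot be told apart.

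The members varied more between pools of one age than most probe sets did. Their median within-age SD over the 11 probe sets was 0.40 on the log2 scale, against 0.20 over all tested probe sets. *Bmal1*, *Dbp* and *Nr1d1*, the member genes with the largest SD, enter that median with 2 probe sets each, which raises it. The SD of the brighter *Dbp* probe set exceeded that of 98.4% of tested probe sets, *Bmal1* that of 90.8% and *Nr1d1* that of 90.4%, whereas *Tef* stood at 57.0% and *Bhlhe40* at 27.1%. *Per2* stood at 84.3%. Age accounted for a median of 21.7% of the variation of the member probe sets and for 26.1% over all tested probe sets.

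**Figure D2:**
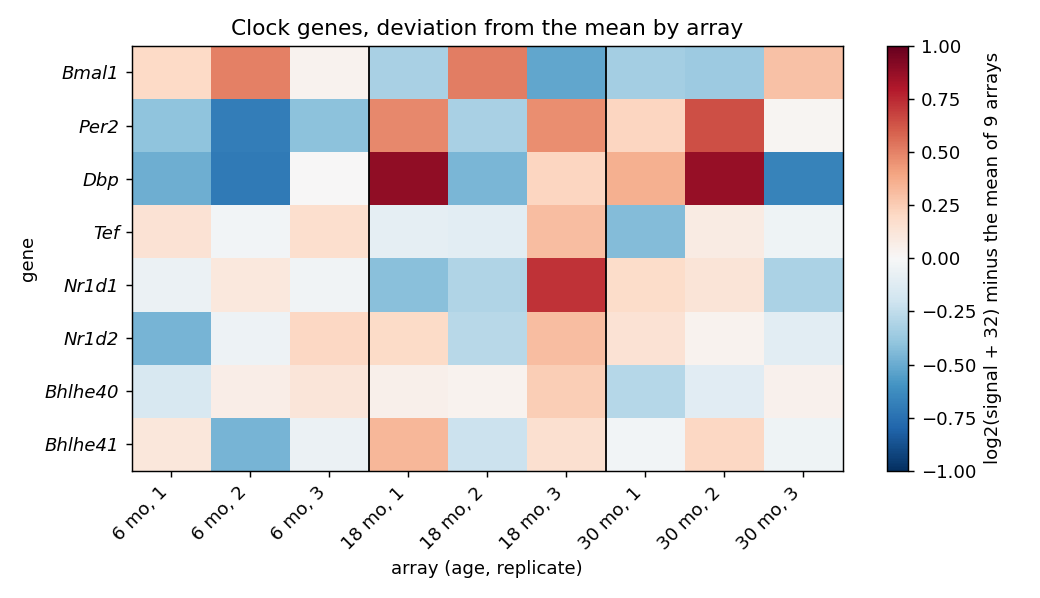
Deviation of log2(signal + 32) from the mean of the 9 arrays for each clock gene (rows) on each array (columns, ordered by age and replicate; black lines separate ages), in colour from -1 to 1. Bmal1 is above its mean and Dbp below on replicates 1 and 2 of 6 months, replicate 2 of 18 months and replicate 3 of 30 months, and the reverse on the 4 other older arrays.

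Across the 9 pools, *Dbp*, *Per2* and *Bhlhe41* tended to be high on the arrays on which *Bmal1* was low, with exceptions. For example, *Bhlhe41* and *Bmal1* were both above their means on replicate 1 of 6 months and both below on replicate 1 of 30 months. On replicate 3 of 30 months *Per2* and *Bmal1* were both above. Pearson's r of *Bmal1* was -0.87 with *Dbp* (rho -0.75), -0.86 with *Per2* (rho -0.72) and -0.78 with *Bhlhe41* (rho -0.77). *Per2* had an r of 0.83 with *Dbp* (rho 0.82) and of 0.80 with *Bhlhe41* (rho 0.85), and *Dbp* one of 0.75 with *Bhlhe41* (rho 0.78). The exact two-sided permutation p of these pairs was 0.00519, 0.00713, 0.0112, 0.00877, 0.00724 and 0.0178, in the order given, and the p of rho 0.0255, 0.0369, 0.0214, 0.0108, 0.00607 and 0.0172. The permutation ran over all 9 arrays without regard to age, so differences between ages enter these p-values. Adjusted over the 28 pairs computed, the smallest p of r was 0.0614 and that of rho 0.143, so 0 pairs passed 0.05. An unadjusted exact permutation p of r under 0.05 was reached by 7 pairs, the seventh being *Bmal1* with *Nr1d2* (r = -0.71).
Without the 2 arrays farthest from the median of *Bmal1*, both of 18 months, r of *Bmal1* was -0.95 with *Dbp*, -0.86 with *Per2* and -0.75 with *Bhlhe41*. The unadjusted exact permutation p was 0.00357, 0.0254 and 0.0361. For its other partners r was then -0.54 with *Nr1d2*, -0.06 with *Nr1d1*, 0.37 with *Tef* and 0.45 with *Bhlhe40*. Over all 9 arrays these were -0.71, -0.51, -0.08 and 0.06. Without the 2 arrays farthest in *Per2*, the r of *Per2* was 0.71 with *Dbp* and 0.66 with *Bhlhe41* (unadjusted exact permutation p = 0.0754 and 0.112). The r of *Dbp* with *Bhlhe41* was 0.53 without the 2 arrays farthest in *Dbp* (unadjusted exact permutation p = 0.235).

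The opposed pattern was also there within ages. With each age's mean subtracted, r of *Bmal1* was -0.83 with *Dbp*, -0.91 with *Per2* and -0.73 with *Bhlhe41*, and r of *Per2* with *Dbp* was 0.85, given as descriptions with no p. *Bmal1* had a negative r with 6 of its 7 partners, both over the arrays and over deviations from age means, *Bhlhe40* being the exception at 0.06 and 0.04. Without the arrays farthest in *Bmal1*, its r was 0.37 with *Tef* and -0.06 with *Nr1d1*, as given above. Of all tested genes, 47.6% had a negative r with *Bmal1* over the arrays and 54.2% over the deviations. Among the 21 pairs of the other genes, r was positive in 16 over the arrays and in 19 over the deviations. These pairs share genes and no background share was computed for them, so the counts are descriptions. The closeness was uneven. *Nr1d1* had an r with *Dbp* of 0.16 over the arrays and 0.18 over the deviations, and with *Per2* of 0.24 and 0.40. *Tef* had an r with *Dbp* of -0.07 over the arrays and 0.11 over the deviations, and with *Per2* of -0.02 and 0.50. *Bhlhe40* had -0.14 and -0.20 with *Dbp* and -0.06 and 0.04 with *Per2*, in the same order. *Bhlhe40* and *Bhlhe41*, paralogues with the same DNA motif, had -0.07 and -0.16 with each other.

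**Figure D3:**
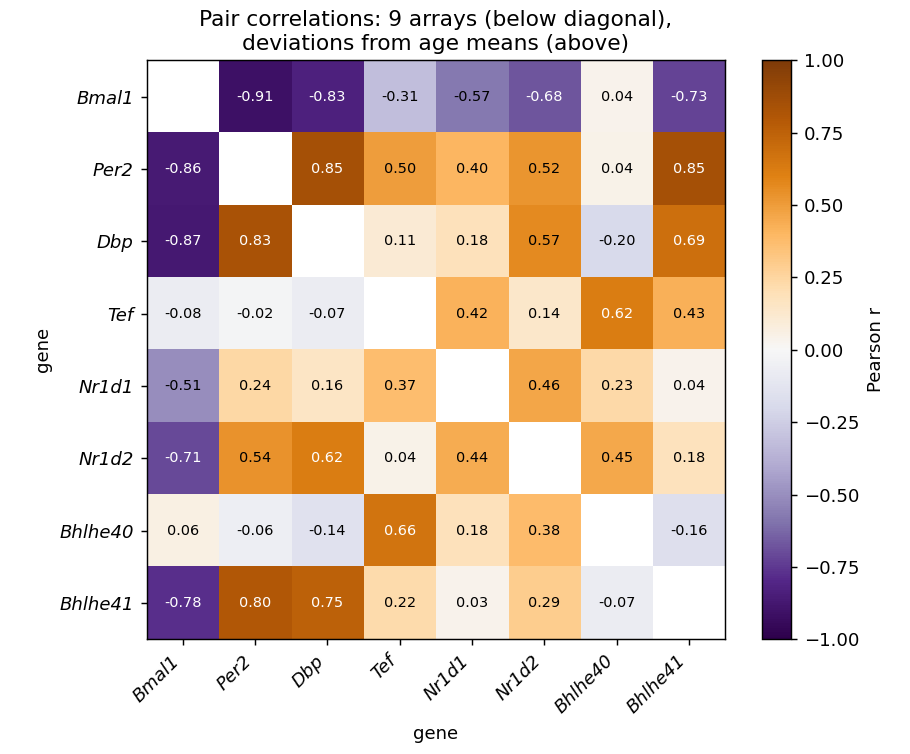
Pearson r of each pair of clock genes over the 9 arrays (below the diagonal) and over deviations from the age means (above it), on log2(signal + 32), in colour from -1 to 1. The row and column of Bmal1 are negative except with Bhlhe40 (0.06 and 0.04), and Per2, Dbp and Bhlhe41 are positive with each other.

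With the other probe set of *Bmal1*, *Dbp* and *Nr1d1* in place of the brighter one, r of *Bmal1* was -0.52 with *Dbp*, -0.59 with *Per2* and -0.54 with *Bhlhe41*, all nearer 0 than before, and r of *Per2* with *Dbp* was 0.90, against 0.83 before. The 2 probe sets of a gene had an r of 0.76 in *Bmal1*, 0.87 in *Dbp* and 0.90 in *Nr1d1*. Without replicate 3 of 18 months, which held the low *Bmal1* value, these were 0.85, 0.90 and 0.80.
Set against the 3162 other tested genes, only 1 gene that is no member had a lower r with *Dbp* than *Bmal1*, and only 1 a higher r than *Per2*. These ranks describe 9 arrays, each of its own pool.

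**Figure D4:**
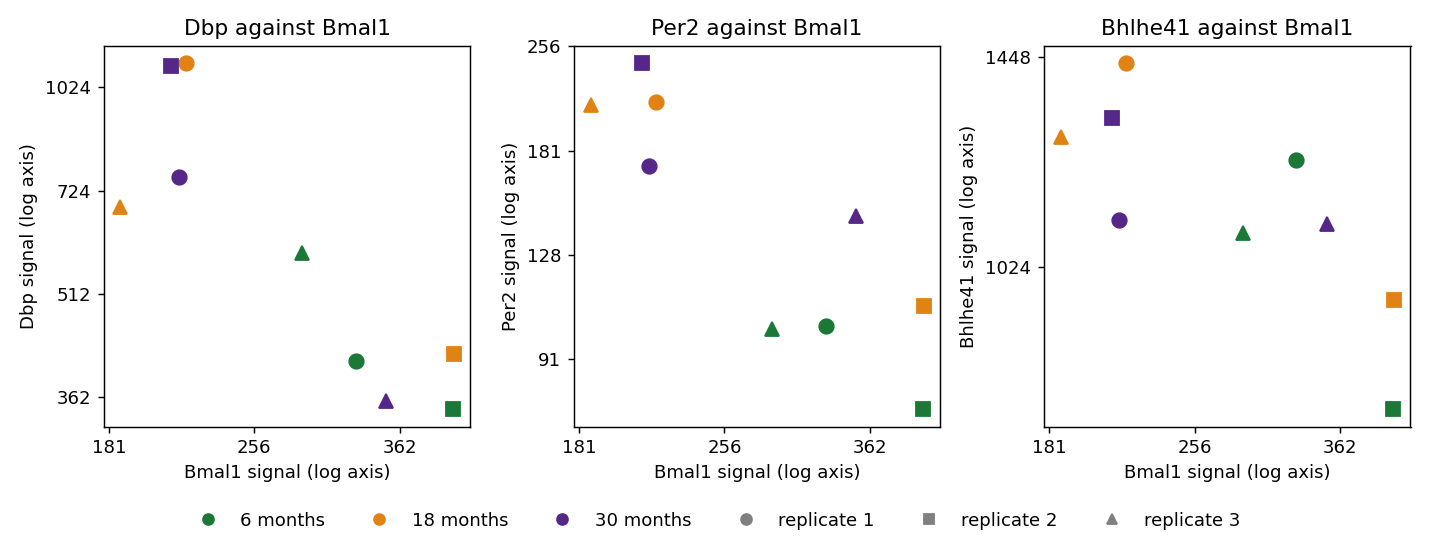
Signals of Dbp, Per2 and Bhlhe41 (vertical) against Bmal1 (horizontal) on the 9 arrays, all axes logarithmic; colours are ages and markers replicate numbers. In the Dbp panel, replicate 2 of 18 months (Bmal1 411.8, Dbp 418.8) and replicate 3 of 30 months (Bmal1 350.8, Dbp 357.9) lie with the 6-month arrays at the lower right. In the Per2 panel these arrays (107.9 and 145.8) lie above the 6-month arrays (76.7 to 101.1), and in the Bhlhe41 panel the ages overlap.

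The genes most like each member over the 9 arrays were looked up among 3162 others. For *Dbp* they were *Nap1l4* (r = 0.88), *Per2* (0.83) and *Rpl14* (0.82), so that *Per2* was the only member among the nearest 3 of any member. For *Bmal1* they were *Mrpl23* (0.94), *Pgam1* (0.85) and *Ccndbp1* (0.84), and for *Per2* *Lct*, *Gak* and *Cox6a2* (0.88 to 0.89). *Lct* also led for *Bhlhe41* (0.92), before *Cspg4* (0.91) and *Pim3* (0.88). For *Nr1d1* they were *Adcy6* (0.92), *Lipa* and *Gipc1* (0.79 each), and for *Nr1d2* *Capn6*, *Gcn1* and *Abcc3* (0.87 each). For *Bhlhe40* they were *Kcnn1* (0.94), *Lta4h* (0.91) and *Khk* (0.84), and for *Tef* *Mapk8ip1* (0.90), *Arfgap1* and *Chst10* (0.89 each).

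Of the other clock genes, 11 of 30 listed were on the array and 9 passed the signal filter, and 0 passed the limma threshold in any comparison. Their median log2 change was -0.11 at 18 months and -0.05 at 30 months, against -0.04 and -0.06 over all tested genes. *Hlf*, the third PAR bZIP gene beside *Dbp* and *Tef*, averaged 164 ± 15.6 at 6, 115 ± 58.8 at 18 and 113 ± 2.35 at 30 months (SD, n = 3 pools each), with an r of 0.01 with *Dbp*. *Csnk1d*, a kinase that marks PER proteins for turnover, had log2 changes of -0.14 and -0.39 (adjusted p = 0.794 and 0.327 in limma). *Prkaa2*, a catalytic subunit of AMP-activated kinase, which in mouse phosphorylates CRY1, had -0.60 and -0.29 (adjusted p = 0.431 and 0.496). *Ppp1ca*, a phosphatase subunit, had 0.17 and 0.13.
Rhythmic output genes were represented by 14 tested genes, with 0 past the threshold and medians of 0.12 and 0.07. Their median r was -0.03 with *Dbp* and -0.08 with *Bmal1*, against -0.02 and 0.02 over all tested genes. The transferrin receptor *Tfrc* (-0.95 and -1.25), *Ldb3* (0.49 and 0.36), *Tcap* (0.30 and 0.30) and *Ucp3* (0.25 and 0.47) had the smallest p.

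Glucocorticoid-responsive genes bear on the clock because corticosterone follows a daily rhythm, and *Per2* is among the genes the hormone can induce. In this list 11 genes were tested, 0 passed, and the median log2 changes were 0.07 and 0.06 at 18 and 30 months. The 4 with the smallest p were *Cebpb* (0.35 and 0.49), *Cdkn1a* (-0.57 and -0.45), *Hsd11b1* (0.07 and 0.33) and *Sgk1* (0.11 and 0.40). With *Dbp*, 8 of the 11 (72.7%) had a negative r, against 52.2% of all tested genes, and the median r was -0.09, against -0.02. With age means subtracted, the median r with *Dbp* was -0.42, against 0.06 over all tested genes. An r under -0.5 with *Dbp* was then found in 4 of the 11 (36.4%), against 9.26%. With *Bmal1*, 5 of the 11 (45.5%) then had an r over 0.5, against 7.90%, and 1 had an r under -0.5.

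Immediate early genes, which respond within minutes to nerve activity, stretch, injury or handling, had a negative r with *Dbp* over the pools in 16 of 23 tested genes, or 69.6%, against 52.2% of all tested genes. Of the 23, 0 passed the limma threshold between ages, with median log2 changes of -0.08 and -0.07. Their median r was -0.28 with *Dbp* and 0.28 with *Bmal1*, against -0.02 and 0.02 over all 3163 tested genes. An r under -0.5 with *Dbp* was found in 7 of the 23 (30.4%), against 9.23% of all tested genes. With age means subtracted, 8 of the 23 (34.8%) were under -0.5, against 9.26%. The genes named by the smallest p were *Dusp6* (-0.45 and 0.02), *Ier5* (0.36 and -0.35), *Nr4a2* (-0.35 and -0.66) and *Nr4a1* (0.35 and 0.18), with log2 changes at 18 and 30 months.

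Single early genes were then looked up after their values were seen. *Zfp36*, which encodes an RNA-binding protein that destabilizes cytokine messages, read 765.4, 773.1 and 600.6 in 6-month pools, 431.5, 748.7 and 576.1 in 18-month pools, and 587, 598.5 and 825.4 in 30-month pools. It was lowest on the array on which *Dbp* was highest. *Egr1*, a zinc-finger transcription factor, read 736.1, 838.5 and 1551.1 in 6-month pools, 884.9, 2061.6 and 647.9 in 18-month pools, and 660.9, 648.8 and 2083.1 in 30-month pools. Replicate 2 of 18 months and replicate 3 of 30 months were far above the other older arrays, and these are the older arrays on which *Bmal1* was high and *Dbp* low.
*Fos* read 1223.2 and 1358.3 on those 2 arrays, against 617.3 to 1132.7 on the other 7. *Dusp1*, a phosphatase of MAP kinases, read 1333.5 and 1452.2 on them. In 5 of 23 early genes, *Fos*, *Jun*, *Junb*, *Egr1* and *Dusp1*, those 2 arrays were the highest of the 9, which held for 2.02% of all tested genes. The 6-month pools were mixed. *Egr1*, *Fos* and *Junb* were highest of that age on replicate 3, where *Dbp* was highest and *Bmal1* lowest. *Zfp36* and *Dusp1* were lowest there, and *Jun* lay between the other pools. Over all tested probe sets of the list, 33 of 42 had a negative r with *Dbp*. Some genes count there with several probe sets, and no share over all tested probe sets was computed.

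Replicate 2 of 18 months and replicate 3 of 30 months were next left out, a setting chosen after seeing the data. They are the older arrays on which *Bmal1* was high and *Dbp* low, so leaving them out favours opposed signs. On the other 7 arrays, all older pools lay below the 6-month pools in *Bmal1* and above them in *Dbp* and *Per2*. The values below therefore include that split by age and are no separate test of the opposed pattern. There r of *Bmal1* was -0.85 with *Dbp* and -0.94 with *Per2*, and r of *Per2* with *Dbp* was 0.91. The exact permutation p values were 0.0181, 0.00476 and 0.00298 for those 3 pairs (adjusted p = 0.126, 0.0667 and 0.0667 over 28 pairs). On these 7 arrays 16 of the 23 early genes had a negative r with *Dbp*. The share over all tested genes was not computed for these arrays, so the count has no background. The r with *Dbp* was -0.86 for *Zfp36*, -0.68 for *Dusp1*, -0.63 for *Jun*, -0.43 for *Fos*, -0.19 for *Egr1* and 0.40 for *Junb*. Without both *Tg*-high arrays instead, r of *Bmal1* was -0.93 with *Dbp* and -0.89 with *Per2*, and r of *Per2* with *Dbp* was 0.96. The part of the hour of collection in any of these values was not tested, since the labels do not give it.

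**Figure D5:**
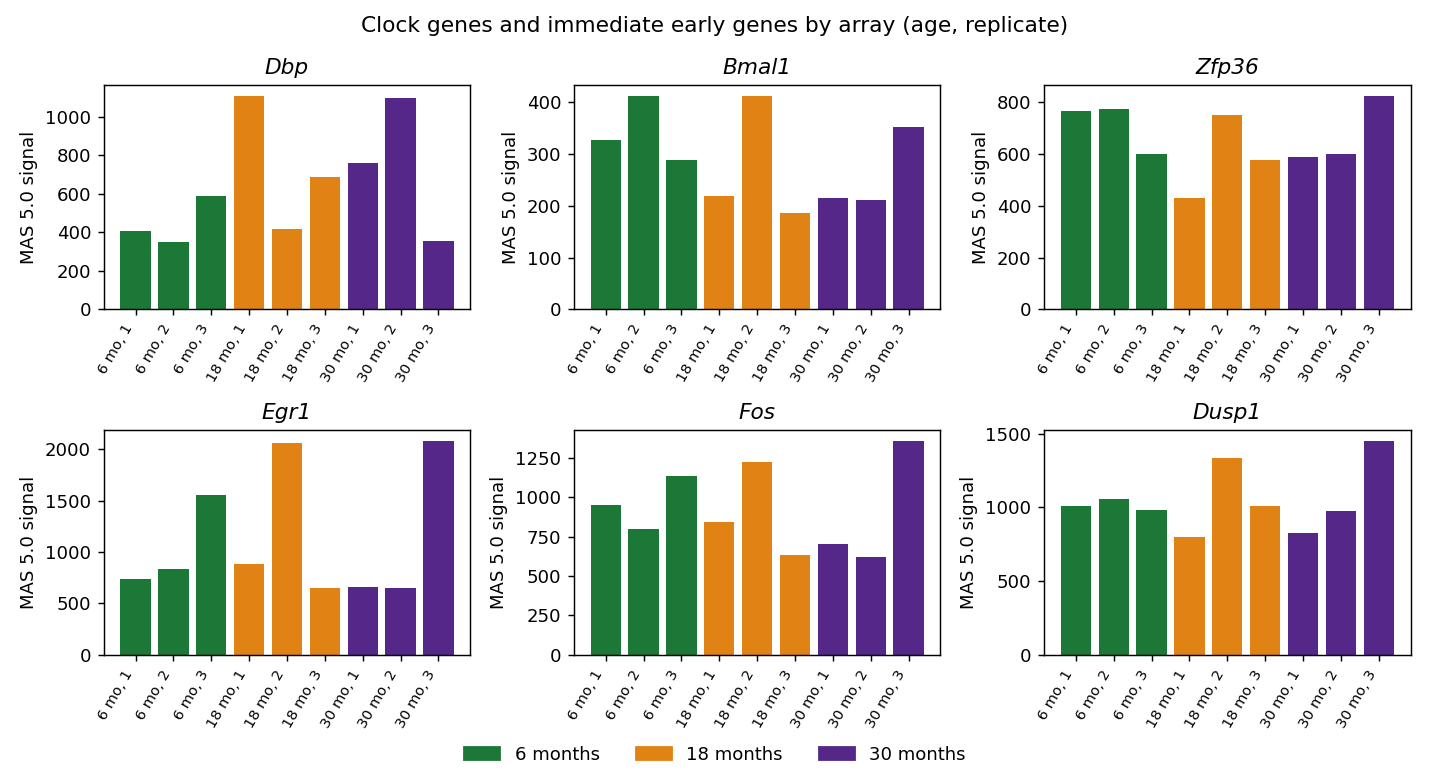
MAS 5.0 signal (linear bars from 0) of Dbp, Bmal1, Zfp36, Egr1, Fos and Dusp1 on each of the 9 arrays, coloured by age. Egr1 reads 2061.6 on replicate 2 of 18 months and 2083.1 on replicate 3 of 30 months, arrays on which Dbp reads 418.8 and 357.9. Within 6 months Egr1 is highest on replicate 3 (1551.1), where Dbp is also highest of that age (587.8).

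Control signals at the 3′ over the 5′ end ranged over 1.03 to 1.17 (*Gapdh*) and 0.904 to 1.17 (β-actin). The *Gapdh* ratio had an r of 0.51 with *Dbp* and -0.56 with *Bmal1* over the 9 arrays, and its part in the clock pattern was not tested. All 14 muscle markers on the array passed the signal filter, and their summed signal was 203486 to 232125 at 6, 240894 to 284493 at 18 and 243710 to 265639 at 30 months. Over the arrays that sum had an r of 0.39 with *Dbp* and -0.55 with *Bmal1*. Taken singly, all 14 had a negative r with *Bmal1*, against 47.6% of all tested genes. An r under -0.5 with *Bmal1* was found in 7 of them (50%), against 7.40%. With age means subtracted, 11 (78.6%) were negative, against 54.2%, and 3 (21.4%) were under -0.5, against 15.5%. With *Dbp*, 1 of the 14 (7.14%) had an r over 0.5 over the arrays, against 7.52%. Of the markers of other cells, 3 of 3 blood genes on the array passed, 6 of 8 nerve and Schwann cell genes, 6 of 7 endothelial and smooth muscle genes, 4 of 6 adipocyte genes, 4 of 7 immune genes, 3 of 8 epithelial and gland genes and 0 of 3 cartilage genes. Their summed signal had an r with *Dbp* of -0.52 for nerve, 0.54 for blood, -0.30 for epithelium and gland, -0.29 for cartilage, -0.14 for adipocytes, 0.22 for endothelium and smooth muscle and 0.23 for immune cells. The nerve sum was 3111.2 to 3623.3 at 6, 2831.2 to 3065.9 at 18 and 2794.7 to 3060.7 at 30 months. The blood sum was 12052 to 15020.3, 14882.7 to 16152.1 and 14579.5 to 18699.6 at the same ages. Their part in the clock values was not tested.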

How the data were processed

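The table holds signal intensity from Affymetrix Microarray Suite 5.0, which the authors computed per the labels' protocols (biotinylated cRNA, 4 animals pooled per array) and deposited on a linear scale. The sources used here name no genome build. The 59 control probe sets were left out, with no further scaling. After a transform to log2(signal + 32), the upper 60% of probe sets by mean (5244 of 8740, all 11 clock probe sets among them) were tested with limma 3.58.1 in R 4.3.3, with 1 mean per age. Benjamini-Hochberg adjustment ran over all 5244. Errors are SE from limma or SD over 3 pools, and 9 arrays limit the precision. An exact test of 3 against 3 pools cannot go below p = 0.1. Pair correlations used log2 values of each gene's probe set with the highest mean, with exact permutation over all 362880 pairings (Python 3.11.15). Gene names came from the platform annotation, in which 7006 probe sets carry 1 symbol; promoters and names came from RefSeq GRCr8, where all 11 members matched. Named were all members, from each of the 4 lists of other genes (marker lists are given as sums) the 4 with the smallest p, and the 3 genes most like each member; a few early genes and *Tg* were named after their values were seen. The members and lists were chosen with earlier results of these data known. Scripts were tested on simulated data. Deviations from age means of arrays with the same replicate number correlated at -0.02 to 0.26, over 0.1 in 4 of 9 pairs, so the numbers were not taken as pairing.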

Additional observations from a re-analysis of the deposited data

How the results depend on the processing

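The count of clock probe sets past an adjusted p of 0.05 was 0 in each age comparison and in the F-test under all 18 alternative limma fits: pseudocounts of 8 and 64, no signal filter, the upper 40% (which kept 9 of the 11), quantile normalization, an intensity trend, the replicate block, each of 9 arrays left out, and replicate 3 of 30 months left out with replicate 2 or replicate 3 of 18 months. The upper 40% left out *Per2* and the weaker *Bmal1* probe set, so that setting did not test them. With the replicate block the smallest adjusted p of a clock probe set was 0.460 at 18 and 0.270 at 30 months against 6 months, and the block changed no call. The adjusted p of *Per2* without 1 array was 0.217 to 0.755 at 18 months and 0.147 to 0.621 at 30 months. The number of pairs past the threshold was 0 with either pseudocount, quantile normalization, the other probe sets and the 7 arrays left by either of those pairs (the probe sets and both pairs chosen after seeing the data), and 0 to 1 without 1 array, the 1 being *Per2* with *Bhlhe41* without replicate 1 of 6 months (r = 0.91, exact permutation adjusted p = 0.0410). Without 1 array, r of *Bmal1* was -0.93 to -0.84 with *Dbp* and -0.90 to -0.82 with *Per2*. Some directions turned. *Nr1d1* read 0.0042 at 18 and 0.0040 at 30 months after quantile normalization. Without 1 array the log2 change at 18 months was -0.36 to 0.21 and -0.53 to 0.026 in the brighter and weaker *Nr1d1* probe sets, -0.19 to 0.014 in *Tef*, -0.0035 to 0.35 in *Nr1d2* and -1.09 to 0.033 in the weaker *Bmal1* probe set. At 30 months it was -0.10 to 0.15 in *Nr1d1* and -0.053 to 0.28 in *Nr1d2*. Of the brighter probe sets, *Dbp* was 0.28 to 0.95 at 18 and 0.24 to 1.01 at 30 months, and *Bmal1* -0.67 to -0.15 and -0.60 to -0.25. Without replicate 2 of 18 and replicate 3 of 30 months, values that turned were *Tef* 0.014 and *Nr1d1* 0.15 (weaker probe set 0.026) at 18 months and *Nr1d1* 0.15 at 30 months. Without replicate 3 of both ages they were the weaker *Bmal1* probe set at 0.033 at 18 months and *Nr1d1* at 0.15 at 30 months. The causes were not tested. Other splits of the arrays were not made, and the number of arrays limits what could be detected.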
